A study of Mus musculus with 4 samples.

Results

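The genes described are 7 zinc finger and helix-loop-helix transcription factors of neuronal differentiation: Ebf1, Ebf2 and Ebf3, the Myt1 family members Myt1, Myt1l and St18, and Insm1. They were taken by name, but with earlier results of these data known, and all 7 of 7 were listed among the 21690 features of each table. Expression was measured by RNA sequencing in 4 libraries of neural precursors made from A2lox mouse embryonic stem cells that carry a doxycycline-dependent knockdown of Geminin. All 4 were monolayer cultures in N2B27, a neural differentiation medium without serum, harvested on day 5 and sequenced on 1 lane. The 3 knockdown libraries, called 1, 2 and 3, came from independent experiments in which 500 ng doxycycline was present from day 3, and the 1 control library had no doxycycline. The labels do not say how many clones of the line were used. The stem cells had been kept on mouse fibroblast feeder cells before differentiation. A culture given doxycycline without the knockdown construct was not analysed here, so the effects of the drug and of the knockdown cannot be told apart. The title of the control carries the number 1, as does that of library 1. The labels do not say whether this number stands for a shared experiment. Differences between experiments and the effect of the knockdown therefore cannot be told apart either.

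Ebf proteins (early B-cell factors) bind DNA through an atypical zinc finger domain and carry a helix-loop-helix dimerisation motif. In the embryonic nervous system they act after the proneural bHLH factors, when a cell leaves the cycle, migrates and matures as a neuron. Outside the nervous system Ebf1 is a determinant of B lymphocytes, and Ebf factors are also found in adipocytes and mesenchyme. Myt1, Myt1l and St18 (also known as Myt3) share a distinctive class of zinc fingers and act largely as repressors, and Myt1l is used with proneural factors to turn fibroblasts into neurons. Insm1 is a zinc finger repressor of newly committed neuronal and endocrine cells that recruits histone-modifying corepressors.

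Levels are given as FPKM, in which the fragments of a gene are divided by its exon length and by the library's total, so that levels are comparable between genes of different length. The steps in which low values change put the depth of libraries 1, 2 and 3 at 1.00, 1.15 and 0.972 times that of the control. Gmnn, which encodes Geminin, measured 27.0 FPKM in library 1, 65.9 in library 2 and 27.9 in library 3, with 113 in the control, so library 2 kept the most. The authors' deposited tables marked Gmnn as significantly lower in libraries 1 and 3 but not in library 2, where its q-value was 0.0722. Neural precursor markers were detected in all 4 libraries but did not move together. Sox2 had 140, 203 and 154 FPKM against 135, and Sox1 had 63.8, 42.5 and 48.8 against 64.0. The authors' deposited tables marked 347 features in library 1, 762 in library 2 and 677 in library 3, each from a test of 1 library against the same control, so results are given library by library.

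Of the 7 factors, 5 rose, in each case through marks in libraries 2 and 3, and none was marked in library 1. The rule stated for the series calls a gene from the marks of significance in the authors' deposited tables: 2 or more of the 3 tables must carry a mark, with the same direction in each. Under it Ebf1, Ebf3, Myt1, St18 and Insm1 rose, which is 5 of the 7, and 0 fell. Of all 14477 features that could be called, 1.98% rose and 0.905% fell. Leaving out either library 2 or library 3 took the count of factors to 0, since library 1 marked none of the 7. Ebf2 was marked in library 2 only, and Myt1l had too little data for a test in any table. Taken singly, library 1 had 0 of the 7 marked higher, library 2 had 6 and library 3 had 5, against 0.909%, 3.23% and 3.33% of the features with a usable test. In library 1, however, Ebf3, Myt1 and Myt1l had too little data for a test and St18 was not tested. Only Ebf1, Ebf2 and Insm1 could be marked there. These are bulk samples, so more cells of a type that express these genes and more RNA per cell cannot be told apart.

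**Figure D1:**
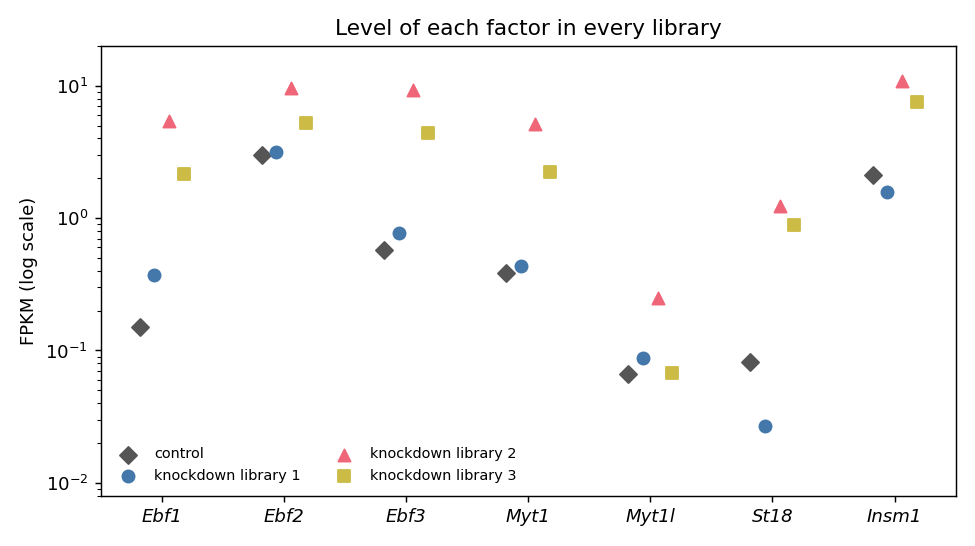
FPKM of each factor (log axis) in the control and in the 3 knockdown libraries, 1 point per library. For Ebf1, Ebf2, Ebf3, Myt1, St18 and Insm1 libraries 2 and 3 lie above the other two, and for Myt1l library 2 alone does, at 0.248 FPKM.

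Among the Ebf genes, Ebf1 measured 0.374 FPKM in library 1, 5.40 in library 2 and 2.16 in library 3, with 0.150 in the control. Further values follow the same order. All 3 knockdown values lay above the control, by 2.49-fold, 36.0-fold and 14.4-fold. These rest on few control fragments: the 4 values stand in the ratio of 5, 83 and 28 fragments to 2, the smallest whole numbers that give them once depth is allowed for, although any multiple would give them too. With those numbers the exact 95% interval of the ratio, which covers counting error only, was 0.408 to 26.2 in library 1, 9.65 to 302 in library 2 and 3.63 to 125 in library 3. The interval in library 1 includes no change. The gene is listed on chromosome 11 from 44431635 to 44818674 (mm9).

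Ebf3 also rose. It had 0.770, 9.37 and 4.43 FPKM against 0.579, that is 1.33-fold, 16.2-fold and 7.65-fold the control. In the authors' deposited tables its q-value was 8.04e-11 in library 2, the smallest among the 7 factors in any table, and 1.76e-05 in library 3. In library 1 the gene had too little data for a test. Ebf3 lies on chromosome 7 from 144385353 to 144506128 (mm9).

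Ebf2 was the most abundant of the 7 factors in the control. It had 3.14, 9.60 and 5.26 FPKM against 3.00, which is 1.05-fold, 3.21-fold and 1.76-fold. Library 1 was at the control level and library 3 between the control and library 2. The authors' deposited tables gave a q-value of 0.00205 in library 2 and 0.400 in library 3, so it did not meet the rule for a call. Ebf2 lies on chromosome 14 from 67852128 to 68048604 (mm9) and overlaps the predicted gene Gm6878, which was at or below 0.333 FPKM in every library.

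The make-up of the Ebf transcripts differed between libraries as well as their sum. Ebf1, Ebf2 and Ebf3 together came to 3.73 FPKM in the control, 4.28 in library 1, 24.4 in library 2 and 11.8 in library 3. Ebf2 was 80.5% of that sum in the control and 73.3% in library 1, but 39.4% in library 2 and 44.4% in library 3. Ebf1 made up 4.02% in the control, 8.74% in library 1, 22.2% in library 2 and 18.2% in library 3. The fourth family member, Ebf4, took the other direction, with 1.36, 2.26 and 1.21 FPKM against 2.61, and was not called. All 3 of its knockdown values lay below the control, the nearest being library 2. The difference between Ebf4 and the others was not tested.

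**Figure D2:**
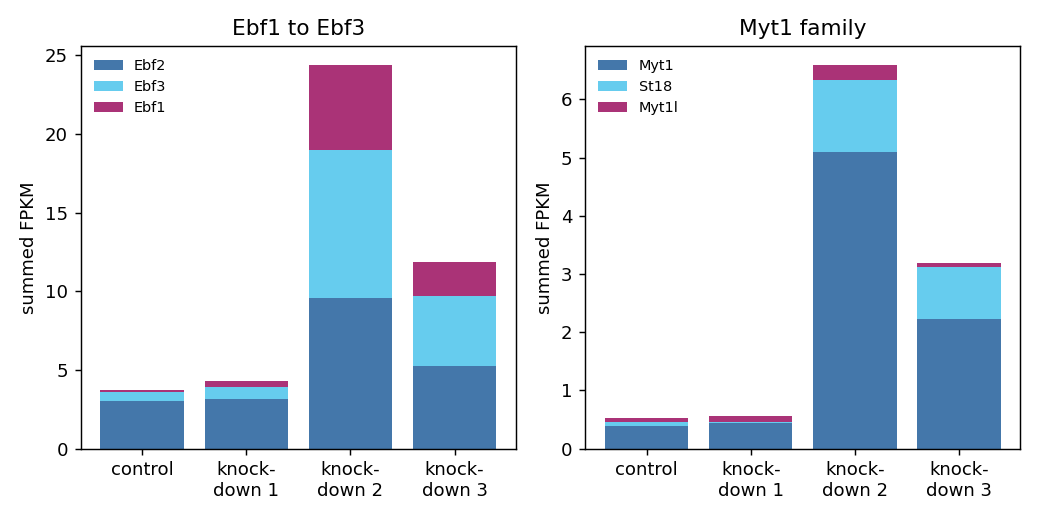
Summed FPKM of Ebf1, Ebf2 and Ebf3 (left) and of Myt1, St18 and Myt1l (right) in each library, with bars starting at 0 and stacked by gene. The Ebf sum is 3.73 in the control and 24.4 in library 2, and the Myt1 family sum is 0.530 and 6.60.

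In the Myt1 family, Myt1 accounted for most of the transcripts in every library. It had 0.438, 5.10 and 2.22 FPKM against 0.382, or 1.15-fold, 13.3-fold and 5.80-fold the control. Libraries 2 and 3 lay well above the other two, which were close to each other. The q-value in the authors' deposited tables was 9.92e-08 in library 2 and 0.00292 in library 3, and library 1 had too little data for a test. Myt1 lies on chromosome 2 from 181498036 to 181562480 (mm9).

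St18 was nearly silent in the control and in library 1, and it was not tested in library 1. It had 0.0270, 1.24 and 0.892 FPKM against 0.0812, and these stand in the ratio of 1, 53 and 32 fragments to 3 in the control. The exact 95% interval of the ratio for those numbers was 0.00633 to 4.14 in library 1, 4.97 to 76.6 in library 2 and 3.43 to 56.0 in library 3. Of the 7 factors it had, with Insm1, one of the 2 smallest differences between the knockdown libraries 2 and 3, at 1.40-fold. It lies on chromosome 1 from 6720131 to 6851021 (mm9).

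Myt1l stayed at the floor of the measurement. It had 0.0877, 0.248 and 0.0679 FPKM against 0.0660, in the ratio of 4, 13 and 3 fragments to 3. With those numbers, the smallest that fit, the exact 95% interval of the ratio was 0.225 to 9.07 in library 1. It was 1.03 to 20.6 in library 2 and 0.138 to 7.68 in library 3. The intervals in libraries 1 and 3 include no change, so a difference was not detectable there at this depth. Myt1l lies on chromosome 12 from 30213248 to 30608074 (mm9). The sum of the 3 Myt1 family genes was 0.530 FPKM in the control, 0.553 in library 1, 6.60 in library 2 and 3.18 in library 3.

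Insm1, on chromosome 2 from 146047732 to 146050752 (mm9), was the only factor besides St18 that was below the control in library 1. It had 1.57, 10.8 and 7.56 FPKM against 2.12, in the ratio of 29, 230 and 135 fragments to 39. For those numbers, the smallest that fit, the library 1 value of 0.741-fold the control had an exact 95% interval of 0.442 to 1.23. That interval includes no change, but a multiple of those numbers would give a narrower one. Libraries 2 and 3 were 5.11-fold (3.63 to 7.38) and 3.56-fold (2.48 to 5.23) the control. Its relative Insm2 was listed at 0 in every knockdown library and at 0.0529 FPKM in the control.

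Ordered by mean level in knockdown, Insm1 came first with 6.66 ± 4.70 FPKM (SD, n = 3), followed by Ebf2 with 6.0 ± 3.29, Ebf3 with 4.86 ± 4.32, Ebf1 with 2.65 ± 2.55, Myt1 with 2.59 ± 2.35, St18 with 0.721 ± 0.626 and Myt1l with 0.134 ± 0.0987. Each neighbouring pair in that order differed by less than the larger of its SDs. In the control, which has no replicate, the order was Ebf2, Insm1, Ebf3, Myt1, Ebf1, St18 and Myt1l. Ebf1 was below Myt1 in the control and in libraries 1 and 3, and above it in library 2.

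On the log2(FPKM + 1) scale, which understates changes of low genes, the median log2 ratio of the 7 factors came to 0.05, 1.92 and 1.22 in the 3 libraries. Over the 12244 features with a mean of at least 1 FPKM the same medians were -0.01, 0.03 and 0.01. Above the 95th percentile of those features lay 0 of the 7 factors in library 1, 6 in library 2 and 4 in library 3. At least 1 log2 unit in 2 or more libraries was reached by Ebf1, Ebf3, Myt1 and Insm1, 4 of the 7, against 1.86% of 17428 features.

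**Figure D3:**
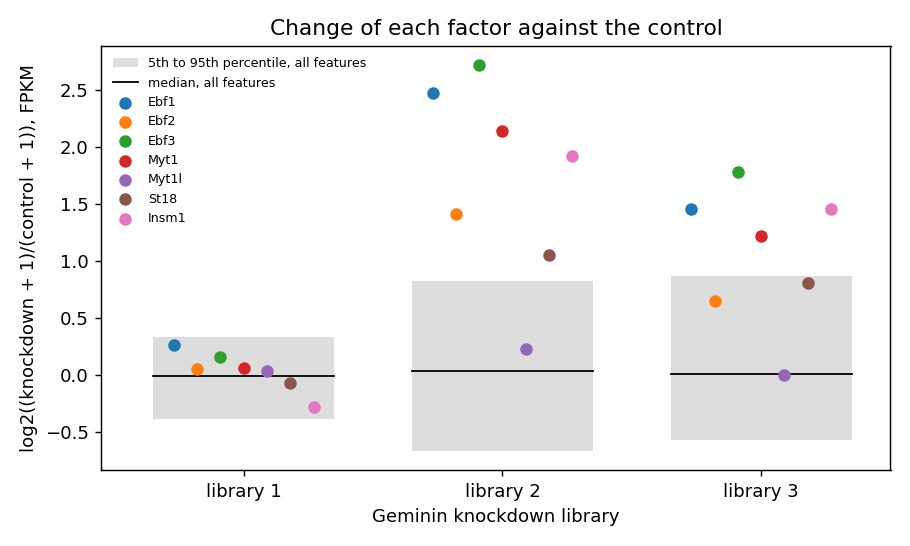
Log2 ratio of each factor to the control in each knockdown library, on the log2(FPKM + 1) scale, over the 5th to 95th percentile (grey) and median (line) of all features tested. In library 1 the factors lie within the grey range, and in library 2 all but Myt1l lie above it.

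With all 3 libraries as replicates, no factor passed a test, and neither did Gmnn, the gene knocked down, with a log2 change of -1.59. limma, fitted across all features, tested the 5 factors with a mean of at least 1 FPKM. Ebf3 had a log2 change of 1.55 with a standard error of 1.05, Ebf1 1.40 with 0.92, Myt1 1.14 with 0.87, Insm1 1.03 with 0.94 and Ebf2 0.70 with 0.57. Without library 2 these mean log2 ratios were 0.97, 0.86, 0.64, 0.59 and 0.35, in the same order, and without library 1 that of Insm1 was 1.69. The adjusted p was 0.993 for each by limma, and 0 of the 5 had an unadjusted p under 0.05, the lowest being 0.20. Of all features tested, 0.0245% were called higher and 0.147% lower. Without library 1, 4 of the 5 had an unadjusted p under 0.05 by limma and 0 passed after adjustment, the adjusted p lying between 0.408 and 0.529. No exact permutation test was run, because with 1 control among 4 libraries its smallest one-sided p is 0.25.

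The order of the knockdown libraries was the same for every factor in one respect: library 2 was higher than library 3 for 7 of the 7. The ratio between these 2 libraries, which does not involve the control, ranged from 1.40 for St18 to 3.65 for Myt1l. The Myt1l values stand in the ratio of only 13 to 3 fragments. Among the 286 features that rose by the study's rule, 53.1% were higher in library 2 than in library 3. This order was not particular to the factors. Of the neuron markers described below, 15 were higher in library 2 and 2 in library 3. Of the proneural bHLH factors, 10 were higher in library 2 and 1 in library 3. By contrast, Gmnn was least reduced in library 2. Library 1, where no factor was marked, and library 3 had nearly the same Gmnn level, at 27.0 and 27.9 FPKM. With 3 knockdown libraries a relation between Gmnn and the factors could not be tested.

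The deposited tables hold no binding data, and promoter sequences are shown here for Ebf1, Ebf3 and Myt1, which are among the 5 that rose. RefSeq promoters (GRCm38.p6, a different build from the mm9 of the levels) were given for 4 of the 7 factors, Ebf1, Ebf3, Myt1 and Myt1l. Ebf2, St18 and Insm1 were not matched. The 250 bases before each of 11 annotated starts were searched on both strands for 2 E-boxes, the motif class bound by bHLH factors (CAGCTG and CAGATG), for AAGTT, the core of the Myt1 family motif, and for the Ebf motif, TCCC and GGGA separated by a pair of bases. One start of each matched gene that rose is printed 5′ to 3′ on the gene's own strand, the first in the table with a motif or else the first, and matches are in capitals.

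Ebf1, chr11:44619978-44620227, plus strand: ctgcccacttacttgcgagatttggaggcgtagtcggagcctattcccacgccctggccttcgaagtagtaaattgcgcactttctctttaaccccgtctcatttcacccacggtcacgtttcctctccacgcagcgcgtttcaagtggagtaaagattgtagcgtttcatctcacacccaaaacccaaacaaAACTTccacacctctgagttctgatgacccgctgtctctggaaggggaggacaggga
Ebf3, chr7:137314446-137314695, minus strand: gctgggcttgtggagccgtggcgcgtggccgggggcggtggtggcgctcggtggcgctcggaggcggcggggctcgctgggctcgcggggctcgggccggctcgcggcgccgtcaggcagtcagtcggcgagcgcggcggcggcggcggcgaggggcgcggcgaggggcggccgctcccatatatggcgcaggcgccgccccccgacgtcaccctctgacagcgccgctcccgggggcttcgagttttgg
Myt1, chr2:181763082-181763331, plus strand: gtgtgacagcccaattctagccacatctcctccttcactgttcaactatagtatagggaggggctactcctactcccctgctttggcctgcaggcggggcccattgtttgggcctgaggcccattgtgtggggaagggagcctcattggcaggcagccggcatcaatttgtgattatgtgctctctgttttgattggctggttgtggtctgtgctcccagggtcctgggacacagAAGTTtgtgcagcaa

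None of the 6 starts of Ebf1, Ebf3 and Myt1 held either E-box in this window, while 4 of the 5 starts of Myt1l, which was not called, did. Of all 32851 promoter windows of the same length, 25.5% held at least 1 of the 2. The AAGTT core was found at 4 of the 6 starts of the genes that rose, among them all 3 of Myt1, where the printed start has it 15 bases before the first transcribed base. In the Ebf1 window it lies on the reverse strand and so reads AACTT. It occurs in 35.3% of all windows. The Ebf motif was in 0 of the 11 windows, against 0.779% of all. No 2 different motifs overlapped in these windows. The Ebf3 window printed above is 80.0% G and C and holds none of the 4 motifs.

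The proneural bHLH list was read library by library in the same way. It holds determination factors and also bHLH factors of later, postmitotic neurons, so not all its members act upstream of the 7 factors. Under the study's rule 5 of 12 members rose and 0 fell, of 7 that could be called. Nhlh2, a bHLH factor of postmitotic neurons, had 0.194, 26.7 and 10.2 FPKM against 0.146. Nhlh1, its close relative, had 0.334, 13.2 and 5.80 against 0.470, and Neurog1, a determination factor, had 0.104, 14.3 and 5.61 against 0.524. Neurod4 had 0.583, 4.48 and 2.36 against 0.390. In each of these 4 genes library 2 was the highest and library 3 the next. The median log2 ratio of the list was -0.06, 1.37 and 0.76 in libraries 1, 2 and 3. In this list and those that follow, leaving out either library 2 or library 3 took the called members to 0, and leaving out library 1 did not alter their number.

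The list of partners and corepressors holds the Ebf-binding zinc finger proteins Zfp423 and Zfp521, the Kdm1a and Rcor proteins and the histone deacetylases that Insm1 recruits, and the Sin3 proteins bound by the Myt1 family. Of 14 members 0 rose and 0 fell, and all 14 could be called. Hdac2 had 190, 198 and 169 FPKM against 183, and Hdac1 had 142, 119 and 120 against 139. The summed level of all 14 was 781, 791 and 766 FPKM in libraries 1, 2 and 3 and 801 in the control.

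In the Notch list, the signalling system through which neurons hold neighbouring precursors back from differentiation, 3 of 12 members rose and 0 fell. Dll3, a divergent ligand, had 0.935, 12.8 and 8.13 FPKM against 0.782. Hes6, which counteracts the Hes repressors, had 14.8, 48.2 and 39.3 against 14.6, and Nrarp, a feedback inhibitor, had 8.95, 35.1 and 21.6 against 10.9. Hes1, a Notch effector that keeps cells in the precursor state, had 31.0, 42.1 and 30.8 against 25.5 and was not called. Hes5, which the neural precursor list also holds, had 6.28, 27.6 and 16.1 against 14.3. It was marked lower in library 1 and was not called. The list's median log2 ratio was -0.05, 0.68 and 0.39.

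Neuron markers rose in 6 of 17 measured members, of 16 that could be called, with 0 falling by the rule. Nefm, a neurofilament subunit, had 17.6, 198 and 74.2 FPKM against 15.6, and Tubb3, the neuronal beta tubulin, had 24.0, 138 and 75.8 against 22.2. Elavl4, a neuronal RNA-binding protein, had 2.66, 15.8 and 8.09 against 2.07, and Lhx1, an interneuron homeodomain factor, had 0.180, 6.0 and 1.49 against 0.0602. Single marks also went the other way. Stmn2 had 75.4, 44.6 and 40.5 FPKM against 66.9 and was marked lower in library 3. Ina had 2.75, 26.1 and 3.84 against 5.52 and was marked lower in library 1 and higher in library 2. The list's median log2 ratio was 0.14, 1.59 and 0.80. Of 12 markers of neural precursors 1 rose, Vim, an intermediate filament gene, with 376, 1005 and 958 FPKM against 388, and the median was 0.03, 0.36 and 0.12.

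Of 10 pluripotency markers 7 rose and 0 fell. Dppa5a had 32.8, 184 and 286 FPKM against 19.9, Tdgf1 had 1.68, 14.6 and 35.5 against 1.42, Zfp42 had 4.68, 33.0 and 58.0 against 3.74, and Esrrb had 0.415, 6.83 and 12.6 against 0.417. All 10 were higher in library 3 than in library 2, whereas all 7 of the factors were higher in library 2. Their part in the levels of the factors was not tested.

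**Figure D4:**
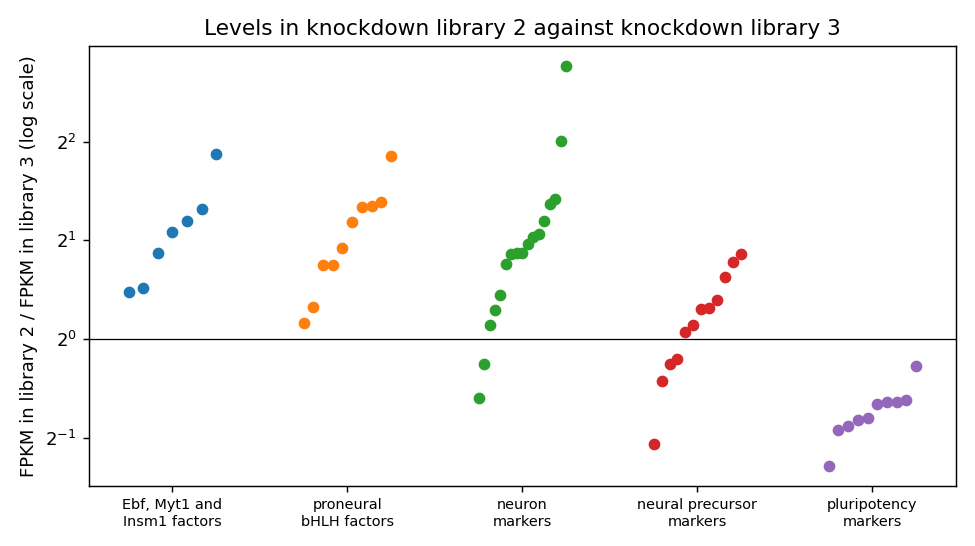
FPKM in knockdown library 2 divided by FPKM in library 3 (log axis), 1 point per gene, for genes above 0 in both libraries. All 7 Ebf, Myt1 and Insm1 factors and 15 of the 17 neuron markers lie above 1, and all 10 pluripotency markers lie below it.

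Because Ebf, Myt1 family and Insm1 genes are also used outside neurons, markers of those other cells were read in the same libraries. Of 12 fibroblast and mesenchyme markers, which also cover the feeder cells, 10 could be called and 2 rose. These were Postn with 2.71, 4.74 and 6.55 FPKM against 1.23 and Lox with 4.54, 9.41 and 16.1 against 3.56. The summed level of all 12 was 46.3, 61.4 and 97.1 FPKM against 43.5, and 10 of the 12 were higher in library 3 than in library 2. The part of these markers in the result was not tested. B lymphocyte markers, 8 in number, were below 1 FPKM in every library, with a summed level of 0.543, 0.869 and 1.18 against 0.592 and with Igll1 and Rag1 listed at 0 throughout. All 7 adipocyte markers were below 1 FPKM, with Plin1, Lep and Cidec listed at 0, and sums of 0.376, 0.629 and 1.10 against 1.35. Vpreb1 and Pax5 were the most abundant B cell markers and Cebpa and Pparg the most abundant adipocyte markers.

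Of 10 endocrine markers 6 could be called and 2 rose, Sst and Chgb, both of which neurons express too. Sst, the neuropeptide somatostatin, had 1.93, 81.9 and 39.4 FPKM against 1.94, and Chgb, a secretory granule protein, had 1.09, 16.1 and 4.61 against 1.15. The hormone genes Ins1, Ins2 and Gcg were listed at 0 in all 4 libraries, and the summed level of the list was 10.6, 115 and 54.5 against 9.70. Among 8 oligodendrocyte lineage markers only 3 could be called, and 0 were. Pdgfra, which the fibroblast list also holds, had 9.42, 9.73 and 13.4 FPKM against 8.91, and Olig1 and Mbp were listed at 0 throughout.

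**Figure D5:**
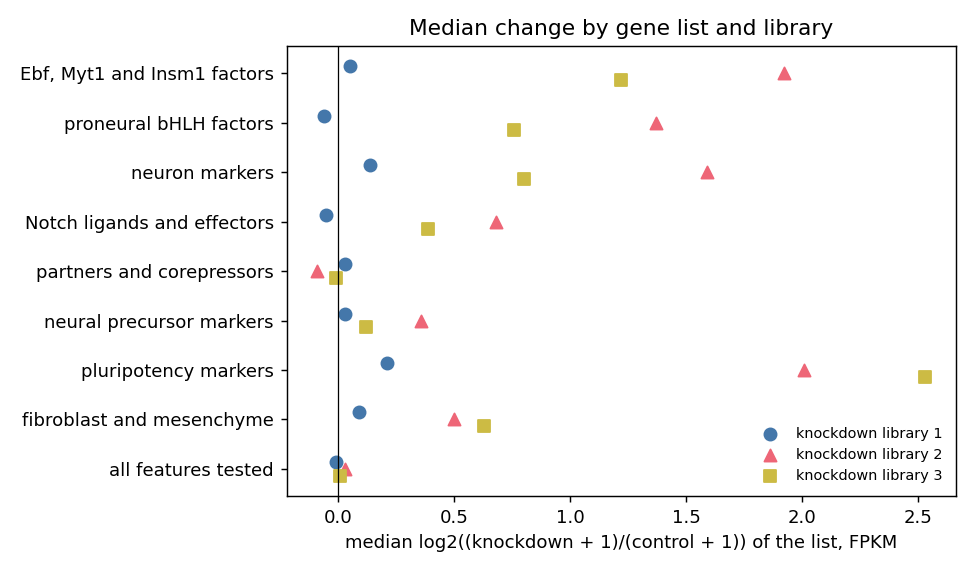
Median log2 ratio to the control of each gene list in each knockdown library, on the log2(FPKM + 1) scale. The medians of the Ebf, Myt1 and Insm1 factors are 0.05, 1.92 and 1.22 in libraries 1, 2 and 3, and those of the pluripotency markers 0.21, 2.01 and 2.53.

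The features whose pattern lay nearest to the factors were found by the distance between their 3 log2 ratios and the median ratios of the 5 factors with a mean of at least 1 FPKM (0.06, 2.14 and 1.46). Candidates needed a usable test in all 3 libraries and a mean of at least 1 FPKM, and short RNAs were left out. Ebf3 and Myt1, with too little data in library 1, would not have met this themselves. Of 11802 candidate features the nearest were Nsg2, a vesicle protein of neurons, Gfra1, a co-receptor for GDNF, Gstm7, a glutathione transferase, Dcc, a netrin receptor, Slc1a2, a glutamate transporter, and Add2, a membrane skeleton protein. Their distances ran from 0.14 to 0.25 log2 units over the 3 libraries. Nsg2 had 14.7, 75.1 and 43.4 FPKM against 15.4, and Dcc had 0.619, 7.07 and 3.97 against 0.772. The 3 ratios share 1 control library, and this likeness is a description.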

How the data were processed

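Per the submitters' processing notes, reads were processed with TopHat, Cufflinks and Cuffdiff on mm9; their versions, and the annotation, were not given in the sources used here. Each table sets 1 knockdown library against the shared control, per the file headers. They hold FPKM computed by the authors, a Cuffdiff p-value for 1 library against 1 library, a q-value and a log ratio. The q-value exceeds 1 in places and was read, like the log ratio, as a score as deposited by the authors. Absolute depth is unknown. Low values changed in whole-fragment steps: a ratio of whole numbers up to 12 came within 0.2% of 85.9% to 88.4% of low ratios, which gave the relative depths. Fragment numbers were given only where all 3 lay within 0.02 of a whole number, with up to 40 control fragments tried and a control value differing by less than 0.01% between tables.

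Ratios were formed within a table. The test was limma 3.58.1 (R 4.3.3) on log2(FPKM + 1), with the prior variance following a trend, over features with no failed estimate and a mean FPKM of at least 1, with Benjamini-Hochberg adjustment at 0.05. It has 2 residual degrees of freedom and takes the spread of the single control to be that of the knockdown libraries. The limma fit was also run on simulated data. There the control had the same spread as the knockdown libraries, so this did not check that assumption. Named genes are the 7 factors, Gmnn, the 6 nearest features and, from each of 12 lists, the called members of largest mean ratio (4 at most) or, if none, the 2 most abundant. One gene that this rule names is not reported here. Sox1, Sox2, Hes1, Hes5, Stmn2 and Ina were chosen after their values were seen. The members and lists were chosen with earlier results of these data known. Alternatives covered the pseudocount, filter, prior, scaling, call rule and each library left out.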

Additional observations from a re-analysis of the deposited data

How the results depend on the processing

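The count of 5 factors that rose rests on libraries 2 and 3 together. It was 0 when marks in all 3 tables were required, 5 without library 1 and 0 without library 2 or without library 3, where both remaining tables had to mark a gene. It was 6 with a mark in at least 1 table and 4 with the fold rule. The count past the limma threshold was 0 under every alternative run. The median log2 ratio over the 7 factors, 1.03, was 1.61 with a pseudocount of 0.1, 1.02 after centring each library on its median, 1.07 with equal totals, 1.14 over factors with a mean of at least 1 FPKM, 1.68 without library 1, 0.59 without library 2 and 0.82 without library 3. Of 42 alternative values for single factors 0 changed sign, and 3 moved by more than 1 SD between libraries, which is wide, all with the pseudocount of 0.1: Ebf1 to 2.85, St18 to 1.61 and Myt1l to 0.42. Leaving out library 2 lowered each of the 7 by over 1.5 times, Ebf1 to 0.86, Ebf2 to 0.35, Ebf3 to 0.97, Myt1 to 0.64, Myt1l to 0.02, St18 to 0.37 and Insm1 to 0.59, within that SD. Centring shifted no library by more than 0.028 log2 units. No paired analysis was possible because the control has 1 library, so the groups share only 1 replicate number, that of library 1. Depth limits Ebf1, St18 and Myt1l, whose values allow as few as 2 or 3 control fragments. In library 1, Ebf3, Myt1 and Myt1l had too little data for a test and St18 was not tested.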
